A study of Mus musculus with 96 samples.

Results

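The secreted frizzled-related proteins and Wif1 are antagonists that osteoblasts release to hold Wnt signalling down, and 5 of their genes (Sfrp1, Sfrp2, Sfrp4, Frzb and Wif1) were followed here in cultured bone cells of 42 mouse strains. The members were taken by gene symbol, with the transcripts of each gene summed, from 37945 genes in the deposited expression table. All 5 were among the 15760 genes with enough signal to test. Sfrp5, the other gene of the frizzled-related family, was listed at 0 in 66 of 95 libraries and never exceeded 0.099 scaled TPM, so it was left as a level only.

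Wnt ligands bind frizzled receptors together with the co-receptors Lrp5 and Lrp6, and the signal that follows drives bone formation. The Sfrp proteins and Frzb carry a cysteine-rich domain like that of the receptors and can bind Wnts outside the cell, whereas Wif1 binds Wnts through a domain of its own. Dkk1 and Sost, antagonists of another kind, block the co-receptors instead.

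The samples were mineralizing osteoblast cultures from Collaborative Cross mice, a panel of recombinant inbred strains that each carry a different mix of founder genomes. Calvarial cells, from the skull caps of pups aged 3 to 5 days whose heads had been shipped on ice, were grown for 48 h and then differentiated for 10 days with ascorbic acid and beta-glycerol phosphate. The only group is the strain: CC011, CC024 and CC035 were each covered by 1 library, 31 strains by 2, 2 strains by 3 and 6 strains by 4, which makes 95 independent libraries from 96 samples. All strains were treated alike, without an untreated or undifferentiated control. The labels give no sex, litter or batch and do not say whether libraries of a strain came from separate animals. The p-values of tests between strains and of slopes within strains therefore reflect only library-to-library spread, which may be technical. Those of slopes and correlations over strain means reflect the scatter between strain means.

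The cultures carried osteoblast transcripts in every strain. All 12 osteoblast markers (among them Alpl, Sp7, Col1a1 and Ibsp) were measured, and their summed level ran from 4086 scaled TPM in CC030 to 14186 in CC028. Bglap2, also on the list, read 0.763 and 0.660 in CC071, 5.37 and 2.57 in CC045 and 2.26 to 16.7 in CC004. Its median strain mean was 830, and its part in the scores of these strains was not tested. Macrophage markers were present too, with all 12 measured and a sum from 61.5 in CC005 to 4774 in CC030. CC030 and CC071 stood apart in the osteoblast score, at -2.43 and -2.41. Their macrophage scores were 1.96 and 1.55, the second also reached by CC055. A score is the mean z-score of a marker list over the strains, or over the libraries where libraries of a strain are compared. In such bulk RNA, fewer cells of a type and less RNA per cell cannot be told apart.

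Of the 5 members, Sfrp2 had the highest level in most strains. Levels are in TPM, a relative abundance corrected for transcript length and here scaled between libraries, so they can be compared between genes. Across the 42 strain means, Sfrp2 had a median of 109 scaled TPM, Wif1 33.8, Sfrp4 18.0, Sfrp1 7.80 and Frzb 2.77. The sum of the 5 genes had a median of 166 and ran from 67.1 in CC013 to 792 in CC038.

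Sfrp2 was the highest of the 5 in 40 of 42 strains, at a median of 64.5% of their sum (21.4% in CC005 to 90.1% in CC030). Wif1 led in CC005, where it made up 43.1%, and Sfrp4 led in CC013 with 33.2%. The order Sfrp2, Wif1, Sfrp4, Sfrp1, Frzb was the commonest and was found in 16 strains, and 8 more differed from it only in having Frzb above Sfrp1. The ratio of Sfrp2 to Wif1 had a median of 3.64 and reached 133 in CC030, while in CC005 it was 0.496.

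**Figure D1:**
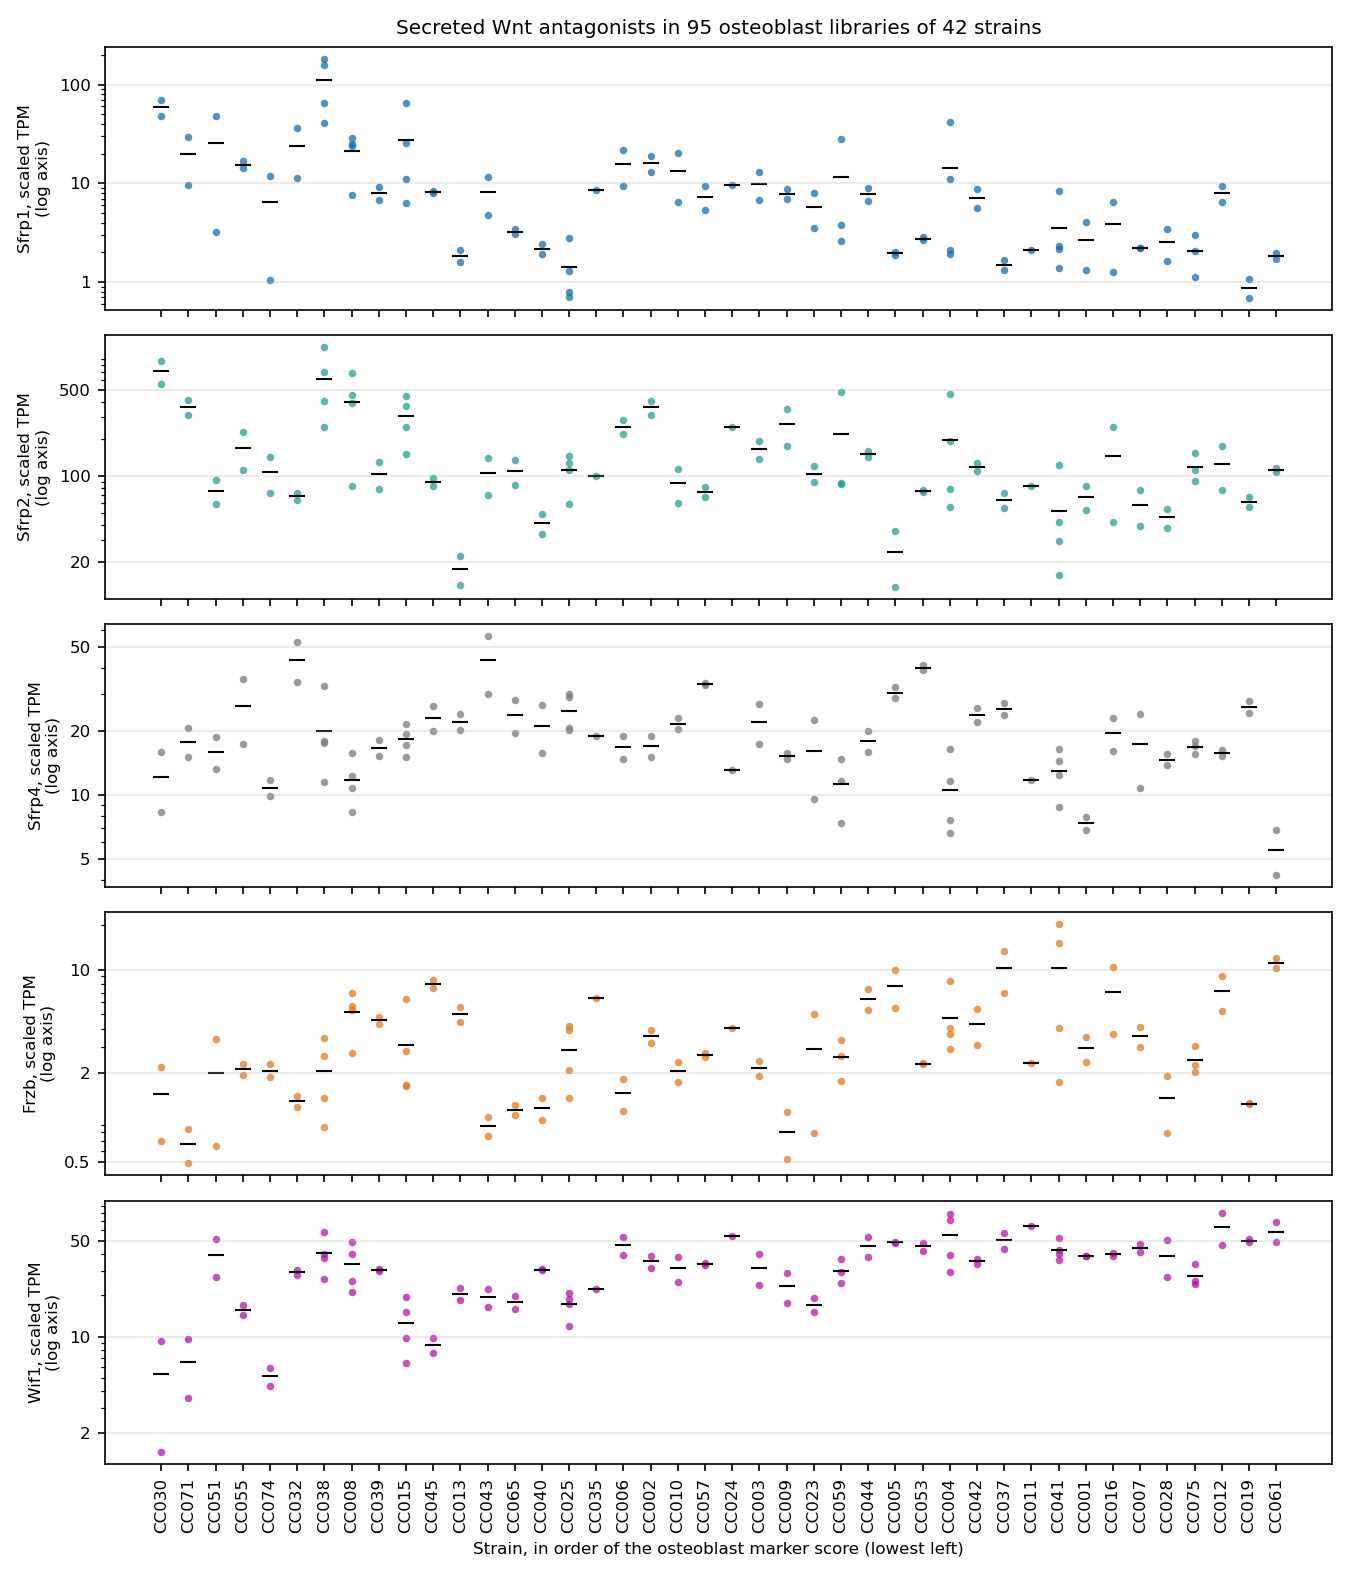
Level of each member in 95 libraries (points, scaled TPM on log axes) and the mean of each strain (bars), with the 42 strains in order of their osteoblast marker score. Sfrp1 was 59.0 in CC030 at the left and 0.878 in CC019 near the right, while Wif1 was 5.35 in CC030 and 58.3 in CC061.

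Most signal of each gene came from 1 protein-coding transcript. For Sfrp1 and Sfrp4 it was the only transcript in the deposited table, so its share was fixed at all of the signal. Other annotated transcripts of Sfrp4 are missing there. The share of the main transcript had a median of 98.8% for Sfrp2, 95.4% for Wif1 and 80.9% for Frzb (lowest 56.1%). The rest of Frzb was a processed transcript without a coding sequence, whose share of the gene reached 43.9% in 1 library. For Wif1 a retained-intron transcript took a median of 4.56% and at most 23.3%. The antisense gene Gm26771 overlaps Sfrp2 and reached 0.848 scaled TPM at most. No source used here says whether the counting was stranded.

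Sequences before the transcription start were matched by symbol for 3 of the 5 members, Sfrp2, Frzb and Wif1. They are shown because the highest strain mean of these genes was 12.5-fold (Wif1) to 40.5-fold (Sfrp2) the lowest. Sfrp2 and Wif1 also move in opposite directions with the osteoblast score described further on. Each run is the 250 bases before the start in the direction of the gene, from RefSeq's GRCm38.p6 reference, and is not the allele of any strain. Capitals mark CG dinucleotides, the sites of DNA methylation. Sfrp2 lies at chr3:83766071-83766320 (plus strand), Frzb at chr2:80447397-80447646 (minus strand) and Wif1 at chr10:121033754-121034003 (plus strand).
Sfrp2: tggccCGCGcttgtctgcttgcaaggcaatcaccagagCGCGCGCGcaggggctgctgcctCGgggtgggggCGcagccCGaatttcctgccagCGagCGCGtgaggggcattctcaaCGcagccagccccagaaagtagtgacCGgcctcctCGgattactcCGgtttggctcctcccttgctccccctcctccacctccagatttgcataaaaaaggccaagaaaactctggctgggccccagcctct
Frzb: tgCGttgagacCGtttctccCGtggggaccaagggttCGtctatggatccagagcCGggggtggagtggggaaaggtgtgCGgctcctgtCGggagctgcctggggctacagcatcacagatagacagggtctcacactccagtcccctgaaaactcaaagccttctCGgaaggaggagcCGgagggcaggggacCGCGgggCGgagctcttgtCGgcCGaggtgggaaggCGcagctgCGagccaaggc
Wif1: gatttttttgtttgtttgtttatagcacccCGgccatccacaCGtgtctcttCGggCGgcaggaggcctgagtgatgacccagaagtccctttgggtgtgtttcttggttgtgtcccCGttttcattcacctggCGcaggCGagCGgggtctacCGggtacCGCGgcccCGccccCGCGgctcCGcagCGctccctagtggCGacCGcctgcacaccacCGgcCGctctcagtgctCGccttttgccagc
The windows held 16 (Sfrp2), 16 (Frzb) and 21 (Wif1) CG dinucleotides, against a median of 6 over 32851 reference windows of the same length. Of those windows, 74.6% held fewer than Sfrp2 and Frzb and 83.7% fewer than Wif1, so such counts are not rare. Neither CTTTGAT, the core bound by TCF and LEF factors that carry the Wnt signal, nor TGTGGT, the core bound by RUNX factors, was found on either strand of the 3 windows. Of all windows, 3.21% held the first and 14% the second. The absence says only that these letters are not in these 250 bases.

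All 5 members differed between strains. In limma's test of strain, with Benjamini-Hochberg adjustment over all genes tested, adjusted p was 9.76e-08 for Sfrp1, 1.1e-07 for Sfrp2, 1.46e-08 for Sfrp4, 1.42e-06 for Frzb and 1.39e-12 for Wif1. The test used 92 libraries of 39 strains, and 81.5% of all genes passed it, so that passing does not set the members apart. The size of their range was larger. Between the highest and lowest strain the members spanned a median of 3.82 on the log2 scale, compared with 1.02 over all genes tested. Over 53 tested genes of a Wnt pathway list the median was 1.74. Within that list it was 2.83 for other extracellular antagonists and 2.61 for R-spondins and their receptors, so groups like the members also ranged widely. The antagonist Sost spanned 7.57, more than any member. The share of variance that lay between strains was 0.771 for Wif1, 0.654 for Sfrp4, 0.620 for Sfrp1, 0.617 for Sfrp2 and 0.567 for Frzb. Its median was 0.472 over all genes and 0.624 over the other extracellular antagonists. Sample titles carry a number that no source used here explains. In the 20 strains whose libraries have distant numbers, Sfrp4 and Frzb did not pass the test of strain. That fit held fewer strains and, of each, only the libraries with the lowest and the highest number.

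Each strain was then compared with the mean of the other strains. Of 195 comparisons of a member in a strain, 23 were called higher (11.8%) and 19 lower (9.74%), at an adjusted p under 0.05 over all strains and genes. Over all genes the same comparison called 7.73% higher and 7.07% lower. Leaving out the libraries of a strain one after the other, 15 of the 42 calls passed every time and 27 did not, and where a strain was left with 1 library, that library was assumed to vary like the others. The calls fell in 24 strains, and in 10 of them at least 1 member was higher while another was lower.

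Sfrp1 spanned the widest range of the 5 genes, 6.10 on the log2 scale. Mice without this antagonist are known for high bone mass. The 4 CC038 libraries were at 40.8, 157, 181 and 64.6 scaled TPM (111 ± 68.6, SD, n = 4), and both CC030 libraries, at 69.8 and 48.3, lay within that range. At the other end, CC019 had 1.07 and 0.688 and the 4 CC025 libraries ran from 0.705 to 2.81. The libraries of CC038 and CC030 did not overlap those of CC019 and CC025, as picking strains by these same values makes likely. All other libraries lay between 1.06 and 65.4.

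Against the other strains, Sfrp1 was higher by 3.91 ± 0.51 (SE) on the log2 scale in CC038 (limma, adjusted p = 3.8e-08) and by 3.21 ± 0.72 in CC030 (adjusted p = 0.000836). It was lower in CC025, at -1.99 ± 0.51 (adjusted p = 0.00426). These 3 calls passed when any library was left out. The calls in CC008 (1.59), CC015 (1.56) and CC019 (-2.35) did not. CC008 lost it without replicate 1, 3 or 4 (lowest difference 1.39), CC015 without replicate 1 or 4 (0.97), and CC019 without either library (-2.15). Within strains Sfrp1 was also uneven: in CC004 the 4 libraries were at 11.1, 42.1, 1.95 and 2.10, a 21.6-fold spread, against a median spread of 1.94-fold.

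Sfrp2, an antagonist made by many mesenchymal cells, was high in the same 2 strains. CC030 had 861 and 557.9 scaled TPM (710 ± 215, SD, n = 2), and the 4 CC038 libraries had 249, 706, 1115 and 406. The lowest levels were 12.9 and 22.1 in CC013, and 12.5 and 35.7 in CC005. The libraries of CC013 and CC005 did not overlap those of CC030 and CC038, but these strains were picked by the same values.

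Sfrp2 was higher than in the other strains by 2.72 ± 0.57 in CC030 (limma, adjusted p = 0.000345) and by 2.33 ± 0.41 in CC038 (adjusted p = 2e-05), and lower in CC013 at -2.73 ± 0.57 (adjusted p = 0.000329). These 3 passed whichever library was left out. The calls in CC071, CC002, CC008 and CC015 (higher, 1.40 to 1.76) and in CC005 and CC041 (lower, -2.40 and -1.51) each failed with 1 library of the strain left out. The difference was then as small as 1.17 in CC015 (without replicate 1 or 4), 1.19 in CC008 (replicate 3), 1.56 in CC002 and in CC071 (either), -1.67 in CC005 (replicate 1) and -1.07 in CC041 (replicate 1). In CC041 the third library stood at 122, while the other 3 had 15.6, 29.7 and 41.9.

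Sfrp4 had the narrowest range of the 5 genes. Loss of this gene is known to thin cortical bone in mice and in people. Its strain means ran from 5.54 scaled TPM in CC061 to 43.5 in CC032, a range of 2.87 on the log2 scale, and its libraries differed within a strain by a median of 1.37-fold (1.35-fold for Wif1). CC032 had 34.2 and 52.9, CC043 had 56.5 and 30.2, and CC053 had 41 and 39. The low strains were CC061 with 6.86 and 4.21, CC001 with 7.88 and 6.90, and CC004 with 6.62, 7.63, 11.7 and 16.5. None of their libraries overlapped those of the 3 high strains, but both sets were picked by these same values.

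Sfrp4 was lower than in the other strains in CC061, with a log2 difference of -1.72 ± 0.28 (limma, adjusted p = 3.94e-06), and in CC001, with -1.29 ± 0.28 (adjusted p = 0.000485). It was also lower in CC004 (-0.87, adjusted p = 0.00106) and higher in CC053 (1.14, adjusted p = 0.00219), and these 4 calls passed with any library left out. The higher calls in CC032, CC043 and CC057 and the lower calls in CC008 and CC059 were lost in turn. Their smallest differences were 0.92 (CC032 without replicate 2), 0.74 (CC043 without replicate 1), 0.86 (CC057 without either), -0.51 (CC008 without replicate 3 or 4) and -0.48 (CC059 without replicate 1).

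Frzb, first known from cartilage, was the least abundant member in most strains. CC061 had 12.0 and 10.3 scaled TPM, CC037 had 13.4 and 6.93, and the CC041 libraries had 20.2, 15.0, 1.73 and 4.06. The lowest were CC071 with 0.845 and 0.493, CC009 with 1.09 and 0.529, and CC043 with 1.02 and 0.757. The high and the low strains, picked by these same values, did not overlap. The lowest CC041 library nevertheless stood close to the highest library of CC009.

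Frzb was higher by 1.86 ± 0.45 in CC061 (limma, adjusted p = 0.00208) and lower in CC071, at -1.56 ± 0.45 (adjusted p = 0.011). It was also called higher in CC037, CC041, CC045 and CC005 and lower in CC009 and CC043. None of these 8 calls passed under every omission of a library. The smallest differences were 1.75 in CC061 and 1.21 in CC037 (each without replicate 1), 0.74 in CC041 (replicate 1 or 2), 1.31 in CC045 and 0.89 in CC005 (either), -1.34 in CC071 (replicate 2), -1.10 in CC009 and -1.16 in CC043 (either). In the CC030 library that was sequenced 2 times, Frzb read 0.550 and then 1.17 deposited TPM, a ratio of 2.12, while the other 4 members repeated at ratios of 0.854 to 0.947.

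Wif1, which late osteoblasts are known to make, separated the strains most cleanly. Its share of variance between strains was higher than that of 90.1% of all genes tested. CC030 had 1.45 and 9.25 scaled TPM, CC074 had 5.92 and 4.35, and CC071 had 9.64 and 3.55. CC012 had 80.1 and 46.7, CC061 had 67.9 and 48.6, and CC004 had 39.6, 29.6, 78.1 and 71.1. The single CC011 library, at 64.0, was the highest strain value. Every library of the 3 low strains lay below every library of the 3 high strains, which their choice by these same values makes likely.

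Wif1 was lower than in the other strains in CC030, CC074 and CC071, with log2 differences of -2.74 ± 0.32 (limma, adjusted p = 1.95e-09), -2.38 ± 0.32 (adjusted p = 9.26e-08) and -2.17 ± 0.32 (adjusted p = 7.83e-07). It was lower in CC045 (-1.64) and CC015 (-1.22) as well. These 5 calls passed with any library left out, although the CC030 difference moved between -3.90 (without replicate 2) and -1.58 (without replicate 1). The higher calls in CC012, CC061, CC004 and CC041 and the lower call in CC025 were each lost under some omission. Their smallest differences were 0.80 in CC012 and 0.85 in CC061 (replicate 1), 0.69 in CC004 (replicate 3), 0.55 in CC041 (any) and -0.53 in CC025 (replicate 1, 2 or 4).

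With strains in order of their mean, which by construction puts like levels side by side, the libraries of adjacent strains overlapped in all 38 neighbouring pairs for Sfrp2, in all but 1 for Sfrp1 and Frzb, all but 2 for Wif1 and all but 3 for Sfrp4. Over all 741 pairs of strains, 56.0% (Sfrp4) to 65.6% (Wif1) had libraries that did not overlap. The same share over all genes was not computed, so these values cannot set the members apart.

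Sfrp1 and Sfrp2 varied together. Over the 42 strain means of log2 values, Pearson's r was 0.755 and Spearman's rho 0.652 (permutation test, two-sided, adjusted over 10 pairs, p = 1e-04 and 2e-04, the first from the smallest p that 100000 draws allow). Without CC038 and CC030, the strains farthest from the median of Sfrp1, r was 0.665. All 4 strains with Sfrp1 called higher (CC008, CC015, CC030 and CC038) were among the 6 with Sfrp2 called higher. Their lowest strains differed, CC019 and CC025 for Sfrp1 and CC013, CC005 and CC041 for Sfrp2, and the ratio of Sfrp2 to Sfrp1 ran from 2.90 in CC032 to 78.9 in CC025.

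Strains whose libraries had close title numbers and strains whose libraries had distant ones were also looked at apart. The r of Sfrp1 and Sfrp2 was 0.621 over 19 strains with close numbers and 0.835 over 20 with distant ones. No other pair of members passed the test. Frzb and Wif1 came nearest, with r = 0.363 and rho = 0.376 (permutation test, adjusted p = 0.089 and 0.074), and r = 0.302 without CC061 and CC037. Wif1 had an r of -0.335 with Sfrp1 and -0.321 with Sfrp2 (permutation test, adjusted p = 0.096 for each).

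**Figure D2:**
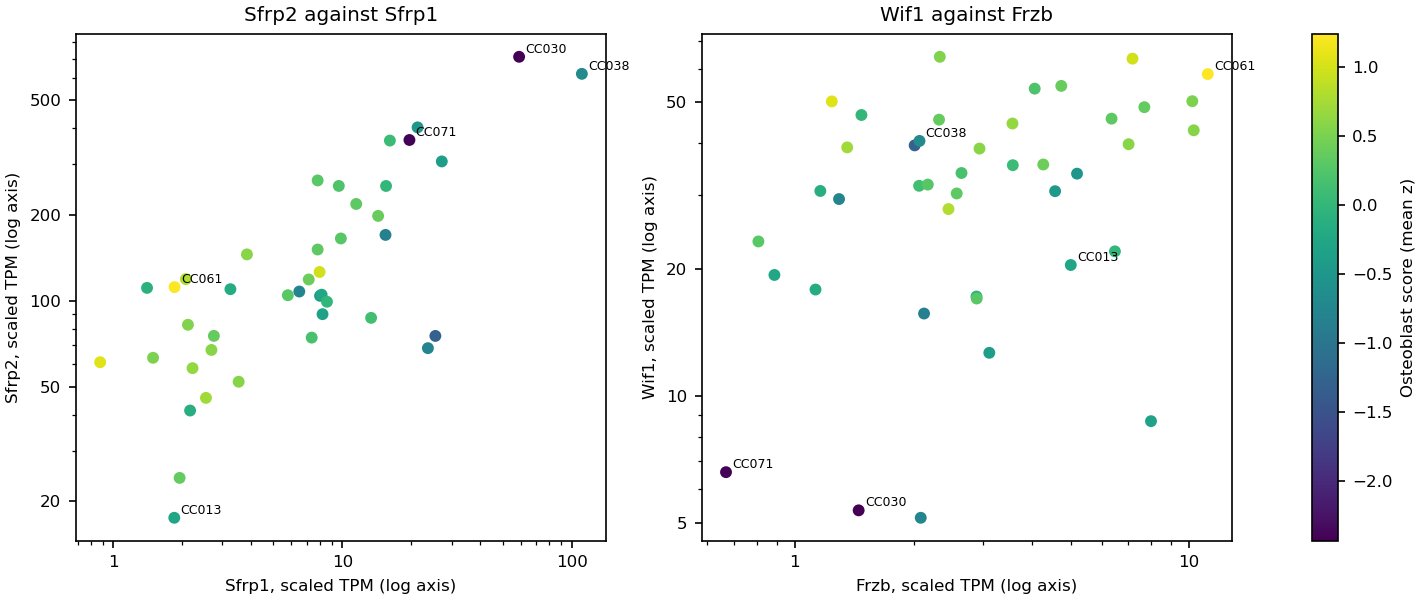
Strain means (42 points, scaled TPM, log axes) of Sfrp2 against Sfrp1 and of Wif1 against Frzb, coloured by the osteoblast marker score. Sfrp1 and Sfrp2 rise together (r = 0.755 on the log2 scale), with CC038 and CC030 at the upper end, and Frzb and Wif1 show r = 0.363.

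Some strains were called for contrasting sets of antagonists. In CC030 and CC015, Sfrp1 and Sfrp2 were called higher and Wif1 lower, and in CC071 Sfrp2 was higher with Frzb and Wif1 lower. CC041 had the opposite set, with Frzb and Wif1 higher and Sfrp2 lower. In CC061, Frzb and Wif1 were higher and Sfrp4 lower. In CC045 Frzb and Wif1 were called in opposite directions: Frzb was at 8.48 and 7.51 scaled TPM and called higher, and Wif1 was at 9.78 and 7.65 and called lower. Only the CC030 set passed whole whichever library was left out. Lost under some omission were all calls in CC041, Sfrp1 and Sfrp2 in CC015, and Sfrp2 and Frzb in CC071. So were Frzb and Wif1 in CC061 and Frzb in CC045.

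The members split by the osteoblast marker score of the strain. Across the 42 strains, Wif1 and Frzb were higher where osteoblast markers were higher, Sfrp1 and Sfrp2 were lower, and Sfrp4 showed no slope past the test. None of the members is in a marker list. Per unit of score, Wif1 changed by 0.89 ± 0.12 (SE) on the log2 scale (limma, adjusted p = 7.48e-07; r = 0.740, rho = 0.685) and Sfrp1 by -1.14 ± 0.20 (adjusted p = 4.81e-05; r = -0.653, rho = -0.658). Frzb changed by 0.49 ± 0.16 (adjusted p = 0.0168) and Sfrp2 by -0.64 ± 0.20 (adjusted p = 0.0148). Sfrp4 had a slope of -0.08 (adjusted p = 0.679). Over all genes tested, 11.5% had a positive and 14.4% a negative slope past the same test.

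Without CC030 and CC071, the strains with the lowest scores, r was 0.564 for Wif1, -0.596 for Sfrp1, 0.312 for Frzb and -0.206 for Sfrp2. The slopes of Sfrp2 (-0.31, adjusted p = 0.413) and Frzb (0.38, adjusted p = 0.178) then missed the threshold. The relation of Sfrp2 across strains rested largely on these 2 strains, whereas the Frzb slope stayed nearer its size. Over all alternatives tried, adjusted p reached at most 0.0127 for Wif1 and 0.02 for Sfrp1, and 0.413 for Sfrp2 and 0.264 for Frzb. Within the strains with close and with distant title numbers, r was 0.812 and 0.672 for Wif1 and -0.687 and -0.662 for Sfrp1.

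**Figure D3:**
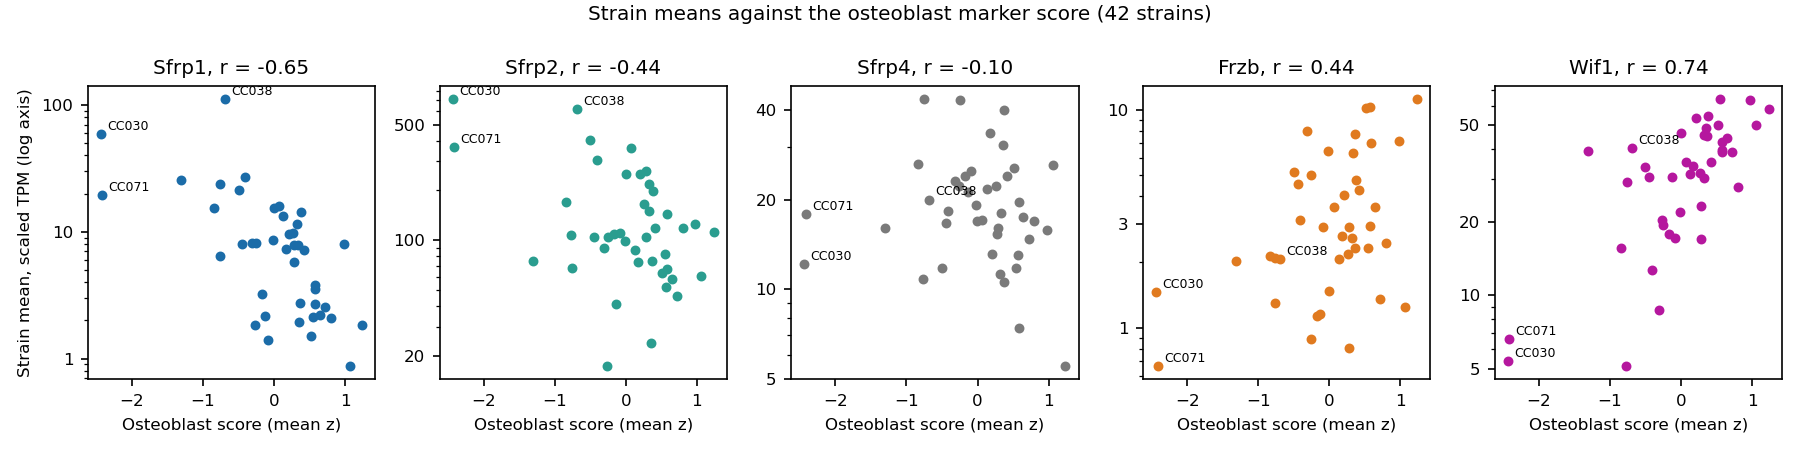
Strain means of each member (scaled TPM, log axes) against the osteoblast marker score, 42 strains a panel, with Pearson's r on the log2 scale above each. Sfrp1 falls with the score (r = -0.65) and Wif1 rises (r = 0.74), and CC030 and CC071 lie alone at the left.

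Other marker lists moved with the members as well. In all, 10 lists were scored, and 13 of 50 relations of a member to a list passed limma's test. Wif1 rose with the osteocyte score, whose list holds genes of bone cells embedded in matrix (slope 1.33 ± 0.17, adjusted p = 7.07e-07), where 5.67% of all genes had a positive and 4.18% a negative slope. The osteocyte and osteoblast scores themselves had an r of 0.801.

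Sfrp1 and Sfrp2 rose with the suture and tendon score, by 1.81 ± 0.38 (limma, adjusted p = 0.00447) and 1.60 ± 0.30 (adjusted p = 0.00188), compared with 2.84% of all genes. Both also rose with the adipocyte score, by 1.15 ± 0.23 (adjusted p = 0.000405) and 0.98 ± 0.19 (adjusted p = 0.000209), compared with 13.4% of all genes. Without CC038 and CC030, the farthest strains on the adipocyte score, r with that score dropped from 0.606 to 0.350 for Sfrp1, which then missed the threshold, and from 0.629 to 0.479 for Sfrp2. The adipocyte markers summed to 11.5 scaled TPM in CC013 and 137 in CC038. Among the 19 strains with close title numbers none of these 4 slopes passed, and the suture and tendon slopes did not pass among the 20 with distant ones either.

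Sfrp1 and Sfrp2 had positive slopes on the osteoclast score as well (0.95, adjusted p = 0.0415, and 0.90, adjusted p = 0.0147 in limma, 10.6% of all genes positive and 8.45% negative). Only 4 of its 8 markers were measured, and both slopes were lost in 5 or more alternatives. Sfrp2 rose with the proliferation score (0.49, adjusted p = 0.0448, 5.25% of all genes) and Frzb was lower with the macrophage score (-0.39 ± 0.12, adjusted p = 0.0191, 10.6% of all genes negative). The first was lost in 7 of 12 alternatives (smallest slope 0.29) and the second in 4 (-0.29). The macrophage score had an r of -0.425 with the osteoblast score. With it as a covariate, the osteoblast slopes of Wif1 and Sfrp1 still passed and those of Sfrp2 and Frzb did not. The part of these other cells in the members' levels was not tested further.

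The members had 0 of 15 slopes past limma's test on the remaining lists, and 6 at an unadjusted p under 0.05. Over all genes, 0.0825% were positive and 0.00635% negative on the chondrocyte score, 2.93% and 2.51% on the smooth muscle and pericyte score, and 8.65% and 5.21% on the endothelial score. Wif1 came nearest, with a slope of -0.65 on the smooth muscle and pericyte score (limma, adjusted p = 0.0506).

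Libraries of the same strain repeated the split. With strain held as a factor, so that only differences between libraries of a strain count, Sfrp1 had a slope of -1.47 ± 0.18 per unit of osteoblast score (limma, adjusted p = 1.99e-09) and Wif1 of 0.49 ± 0.10 (adjusted p = 9.62e-05) over 92 libraries. Sfrp2 had -0.61 ± 0.19 (adjusted p = 0.0136), Frzb 0.47 ± 0.15 (adjusted p = 0.0183) and Sfrp4 0.06 ± 0.10 (adjusted p = 0.716). Of all genes, 10.2% had a positive and 13.8% a negative slope. The score here was standardized over libraries, so its unit is not that of the strain score. Strain and library differences pointed the same way for the 4 members that passed in both.

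CC051 and CC041 show the size of these differences. In CC051 the first library had an osteoblast score of -2.92 and the second of 0.72, and Sfrp1 was at 47.7 and 3.22 scaled TPM, Wif1 at 27.1 and 51.8, and Frzb at 0.644 and 3.38. Sfrp2 went the other way from the slope there, with 58.9 in the first and 92.0 in the second. In CC041 the third library had the only score below 0 (-0.27) and the highest Sfrp1 and Sfrp2 and the lowest Frzb and Wif1 of the 4. The Frzb slope missed the threshold without CC051 (0.45), without CC041 replicate 3 (0.36), and without either CC051 library, and the Sfrp2 slope moved to -1.27 without CC051 replicate 2. The Sfrp1 and Wif1 slopes passed whichever library was left out, at -1.84 to -1.36 and 0.38 to 0.69.

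The rest of the Wnt pathway was set beside the members with a list of 67 genes, of which 53 were tested and 50 differed between strains. The most abundant gene of each role by median strain mean was Wnt5b among the ligands (7.15 scaled TPM), Rspo3 among R-spondins and their receptors (16.3), Fzd1 among the frizzled receptors (36.9), Ryk among the other receptors (59.5), Igfbp4 among other extracellular antagonists (353.3) and Ccnd1 among targets (74.3). Sfrp2 at 109 was thus more abundant than any ligand or receptor on the list. Sost and Dkk1, the co-receptor blockers, had medians of 10.3 and 14.8 and ranges of 7.57 and 5.11 on the log2 scale.

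In a limma fit of every gene on each member's level, 31 of the 53 Wnt genes had a slope past the test on Sfrp1 (19 positive and 12 negative), where 13.2% of all genes were positive and 10.6% negative. Sfrp2 had 18 positive and 7 negative, where all genes had 13.9% and 11.1%, and Wif1 had 14 and 4, where all genes had 6.21% and 5.5%. Sfrp4 had 1 positive, Wnt7b (r = 0.526), with 0.425% of all genes positive and 0.4% negative, and that slope was lost in 8 of 12 alternatives. Frzb had 0 by limma, with 0.0888% of all genes positive and 0.019% negative, and 8 positive and 6 negative at an unadjusted p under 0.05. The share of all genes passing was not computed in subsets of strains, so counts there cannot set the Wnt genes apart. Among strains with close title numbers 7 of 265 such relations passed and among those with distant numbers 34, compared with 75 over all strains. Of those 75, the slopes of Wnt10b on Sfrp1 and of Bambi, Lgr4 and Wnt5b on Wif1 passed in all 12 alternatives, 44 were lost in 1 to 3 and 27 in 4 or more.

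Among ligands, Wnt10b, which promotes bone formation, was lower where Sfrp1 (r = -0.721) and Sfrp2 (r = -0.540) were higher and rose with Wif1 (r = 0.569). Wnt16, a ligand known for cortical bone, and Wnt11 rose with Sfrp1 (r = 0.563 and 0.465) and Sfrp2 (r = 0.564 and 0.476). Wnt4 was lower with Sfrp1 (r = -0.544), Wnt2 rose with Sfrp2 (r = 0.382), and Wnt5b rose with Wif1 (r = 0.722). Wnt10b had an r of 0.884 with the osteoblast score, which itself moves with these members, and Wnt16 one of -0.205. The slopes of Wnt11 on Sfrp1 and of Wnt2 on Sfrp2 were lost in 4 or more alternatives.

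On the R-spondin side, Lgr5, a receptor for R-spondins that enhance Wnt signals, rose with Sfrp1 (r = 0.669) and Sfrp2 (r = 0.634) and was lower with Wif1 (r = -0.656). Its relatives Lgr4 and Lgr6 rose with Wif1 (r = 0.727 and 0.595), and Lgr6 was lower with Sfrp1 (r = -0.546) and Sfrp2 (r = -0.454). The ligands Rspo1 and Rspo2 rose with Sfrp1 (r = 0.524 and 0.601) and Sfrp2 (r = 0.583 and 0.543). Lgr5 had an r of -0.654 with the osteoblast score and Lgr4 of 0.755.

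Among the receptors, Fzd2, Fzd1 and Fzd4 rose with Sfrp1 (r = 0.586, 0.580 and 0.432) and with Sfrp2 (r = 0.698, 0.385 and 0.564). Fzd5 was lower with Sfrp1 (r = -0.570) and, like Fzd7, rose with Wif1 (r = 0.479 and 0.541), although neither Fzd5 nor Fzd7 passed the test of strain. Ror1 and Ror2, receptors for Wnt5 ligands, rose with Sfrp1 (r = 0.642 and 0.389) and Sfrp2 (r = 0.651 and 0.474), and Lrp6 rose with Sfrp2 (r = 0.441). Lrp4 was lower with Sfrp1 (r = -0.417) and rose with Wif1 (r = 0.637), as did Ryk (r = 0.560). In 4 or more alternatives, the slopes of Fzd1 and Lrp6 on Sfrp2 and of Ror2 and Lrp4 on Sfrp1 were lost. So were those of Fzd5, Fzd7 and Ryk on Wif1.

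Among the other antagonists, Dkk1 and Sost were lower with Sfrp1 (r = -0.632 and -0.583) and rose with Wif1 (r = 0.663 and 0.688), and Dkk1 was also lower with Sfrp2 (r = -0.393). Sost is itself on the osteocyte list. Dkk2 did the reverse, rising with Sfrp1 (r = 0.648) and Sfrp2 (r = 0.603) and lower with Wif1 (r = -0.471), and Dkk3 was lower with Wif1 (r = -0.607). Apcdd1 rose with Sfrp1 (r = 0.529), Sostdc1 rose with Sfrp2 (r = 0.418), and Notum, an enzyme that inactivates Wnts, was lower with Sfrp2 (r = -0.483). Dkk1 had an r of 0.887 with the osteoblast score, Sost 0.822 and Dkk2 -0.605. The slopes of Dkk1 and Sostdc1 on Sfrp2 and of Dkk2 on Wif1 were lost in 4 or more alternatives.

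Target and feedback genes did not move as 1 group. Axin2, a feedback inhibitor induced by Wnt signalling, and Tnfrsf11b, the decoy receptor that restrains osteoclasts, rose with Sfrp1 (r = 0.424 and 0.422). Axin2 is itself on the suture and tendon list, whose score also rose with Sfrp1. Ccn4 and Bambi were lower with Sfrp1 (r = -0.635 and -0.577) and Sfrp2 (r = -0.470 and -0.502) and rose with Wif1 (r = 0.657 and 0.735). With Sfrp2, Nkd1 rose (r = 0.436) and Ccnd1 was lower (r = -0.428), and with Wif1 the factor Tcf7 and the ligase Znrf3 rose (r = 0.482 and 0.471). The slopes of Tcf7 on Wif1, Tnfrsf11b on Sfrp1 and Ccn4 on Sfrp2 were each lost in 4 of 12 alternatives, and that of Ccnd1 on Sfrp2 in 5. That of Znrf3 on Wif1 was lost in 8, and Znrf3 did not pass the test of strain. Bambi had an r of 0.920 with the osteoblast score, Ccn4 0.804 and Axin2 -0.421, and the part of that score in these relations was not tested.

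**Figure D4:**
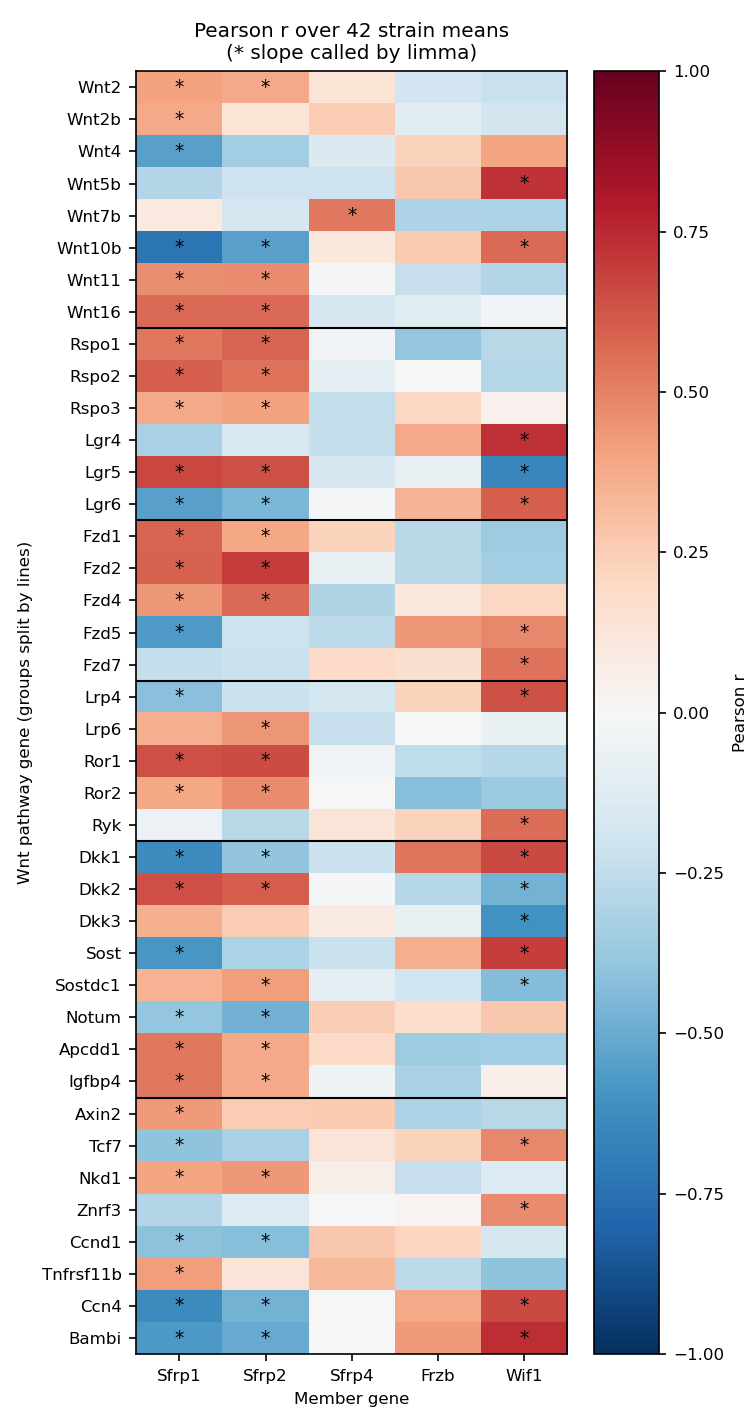
Pearson's r over 42 strain means between each member (columns) and 40 Wnt pathway genes with at least 1 slope past limma's test (rows, split by role), with stars at those slopes. The Sfrp1 and Sfrp2 columns look alike and the Wif1 column is often of the opposite sign, as for Lgr5 (0.669, 0.634 and -0.656).

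The genes most like each member were sought among 11191 protein-coding genes with a mean of at least 1 scaled TPM, by r over the 42 strain means and without a test. For Sfrp1 they were Asap3 (r = 0.890), Vegfd (0.860), Nod1 (0.858), Svep1 (0.857) and Col3a1 (0.856), the last the collagen of soft connective tissue. For Sfrp2 they were Egfl6 (r = 0.888), Ebf3 (0.860), Angptl1 (0.860), Sema6c (0.843) and Pde3a (0.830). For Wif1 they included Srgap1 (r = 0.754), Phex (0.752), Col24a1 (0.746) and Ackr3 (0.738). Phex, which governs phosphate handling in bone, is on the osteocyte list.

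Sfrp4 and Frzb had weaker partners. For Sfrp4 the first 5 were Erich1 (r = 0.652), Slc20a2 (0.648), Emc6 (0.645), Ric8a (0.612) and Zdhhc13 (0.609), and Slc20a2, a phosphate transporter, had r = 0.821 in strains with close title numbers but 0.176 in those with distant ones. For Frzb they were Sppl2a (r = 0.650), Slc17a9 (0.626), Fam204a (0.620), Mbip (0.612) and Cog6 (0.605).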

How the data were processed

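Total RNA was sequenced in 96 samples, made from 200 ng of RNA with a stranded kit that removes ribosomal RNA and keeps RNAs above 200 nt, per the labels' protocols. The authors deposited TPM per transcript (each sample sums to 1000000), which keeps no depth, so depth and counting error are unknown. The build mm9 and Bowtie come from the submitters' processing notes. No source used here names the quantifier. Transcripts were assigned to genes through their identifiers in GENCODE for GRCm38 (91225 of 94545 matched), and 1 line naming no transcript was dropped. The sample of CC030 sequenced 2 times entered as the mean of its runs.

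TPM was divided by a trimmed-mean factor per library (0.773 to 1.27), and genes with at least 0.5 TPM in 2 libraries were tested on log2(scaled TPM + 0.5), so fold changes of low genes are understated. The tests were limma 3.58.1 (R 4.3.3) with a variance trend and Benjamini-Hochberg adjustment over all genes, threshold 0.05: strain (residual df 53), each strain against the unweighted mean of the others (adjusted over all strains and genes), and slopes on marker scores or member levels over 42 strain means or within strains. Tested on simulated data of 15760 genes, the comparison of CC038 with the others recovered 90% of genes shifted by 1 and 99% of those shifted by 2 on the log2 scale. CC038 has 4 libraries, and the simulation held no differences between the other strains. Strains with 2 libraries have a larger SE (for Sfrp1, 0.72 in CC030 against 0.51 in CC038), and recovery in them was not simulated. Close title numbers lay within 5 of each other and distant ones 20 or more apart.

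The members and lists were chosen with earlier results of these data known. Strains named are those called, or, where more than 6 were, mainly the 3 highest and 3 lowest. Wnt genes named are those past the test, at most 4 per role and member. The genes most like a member are the 5 with the highest r. One of those for Wif1 is not reported here. Alternatives were the pseudocount, filter, scaling, variance trend, weights, runs, subsets of strains and omission of each library.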

Additional observations from a re-analysis of the deposited data

Results flagged for a closer look

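Sfrp1 in CC041 replicate 3 was at 8.27 scaled TPM while the other 3 libraries of that strain lay between 1.38 and 2.32, a gap of 0.863 of the range of the group. It was flagged as a sample far from the others by Dixon's test, which was run on 30 groups of a member in a strain with 4 libraries, and chance flags about 1 in 20 groups. The same library had the lowest osteoblast marker sum of its strain (6765 scaled TPM, others 12496 to 17973), and a macrophage marker sum of 157 against 49.9 to 101 in the others. The part of these in the Sfrp1 level was not tested.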

How the results depend on the processing

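In strains with distant title numbers, which leave 20 strains, genes past the strain test fell to 6505 from 12849, members past it to 3 from 5 (Sfrp4 and Frzb were lost) and calls of a member in a strain to 8 from 42. Relations of members to marker scores passed 13 times, and 20 times on deposited TPM without scaling, 7 without CC030 and CC071, 7 without CC030 and CC038 (chosen after seeing the data), 5 with distant and 4 with close title numbers. Relations of Wnt genes to members passed 75 times, and 46 times without CC030 and CC071, 36 without CC030 and CC038, 34 with distant and 7 with close numbers. These subsets hold fewer strains. For calls and relations, the share over all genes in each alternative was not computed, so these counts cannot set the members or the Wnt genes apart. For the test of strain, the distant subset also kept only the libraries with the lowest and the highest number of each strain. The cause of the drops was not tested further. Signs turned for the slope of Igfbp4 on Sfrp2 (-0.046, close numbers) and for r of Sfrp1 with Sfrp4 (-0.0177, distant) and of Sfrp4 with Wif1 (0.0965, close), and the cause was not tested. With each library left out in turn, genes past the strain test were 12521 to 13249, members 5 to 5, calls of a member in a strain 39 to 47, and members related to the osteoblast score within strains 3 to 4. No paired analysis was possible because the labels give strains no shared replicate numbers. Depth is unknown in TPM, so precision rests on the number of libraries.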
